A study of Mus musculus with 16 samples.

Results

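The pyruvate dehydrogenase group comprised 10 genes of the 14538 in the deposited table of tibialis anterior muscle, taken by symbol with no threshold on a measured value, from a list drawn up with earlier results of these data known. They were the 4 pyruvate dehydrogenase kinases Pdk1, Pdk2, Pdk3 and Pdk4, the phosphatase Pdp1, the complex subunits Pdha1, Pdhb and Dlat, and the carriers Mpc1 and Mpc2. Each of the 10 symbols had a row, and 9 of them passed the minimum for testing, a mean of 10 normalized counts over all mice. Pdk3 did not pass.

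Pyruvate made by glycolysis enters mitochondria through a carrier formed by MPC1 and MPC2 in the inner membrane. There the pyruvate dehydrogenase complex turns it into acetyl-CoA, the step that commits carbohydrate carbon to oxidation. The kinases switch the complex off by phosphorylating its E1α subunit, and the phosphatases switch it back on. Skeletal muscle is known to raise Pdk4, a target of PPAR and FOXO factors, in fasting and when fat is the main fuel, and to lower it after refeeding and under insulin.

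RNA was sequenced from the tibialis anterior, a fast muscle of the lower leg, in 16 mice, of which 5 were given vehicle, 6 GDF15 and 5 were pair-fed. Growth differentiation factor 15 (GDF15) is a circulating stress hormone that lowers food intake through a receptor of the hindbrain, and the pair-fed mice serve to separate its action from that of eating less. All the mice were wild type (WT) males, C57BL/6 in the labels and C57BL/6J in the methods, kept at about 29 °C on a NASH diet, rich in fat and fructose, from 8 weeks of age, and were housed singly once treatment began. The GDF15 mice received recombinant GDF15 under the skin once a day. The labels list several doses for all experiments together and do not give the dose of these mice, so dose cannot be examined here. Pair-fed mice were offered, each day, what the GDF15 mice had eaten on the previous day. Each library came from 1 mouse, and the mouse numbers used here name libraries within a group. Whether a number also links mice between groups is not given in the sources used here. The hormone was given from outside, to mice with intact Gdf15.

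The libraries held between 9475676 and 15030303 reads as estimated from the steps of the deposited values. Those are log2 values whose exact transformation is not given in the sources used here, and the normalized counts and fold changes that follow rest on reading it as a variance stabilizing form. The medians were 13895777 for vehicle, 12127031 for GDF15 and 14261194 for pair-fed. All 5 markers of the muscle fibre (Acta1, Ckm, Ttn, Mb and Des) were abundant, and their sum took between 6.34 and 7.05% of the normalized counts in every mouse. The 6 adipocyte markers summed to between 50.8 and 1193 normalized counts, with overlapping groups. The sum of Myh1 and Myh2, the myosins of the IIx and IIa fibres, differed between groups and is given beside the results that it touches. In RNA from whole muscle, fewer fibres of a kind and less RNA per fibre cannot be told apart.

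The promoters of the kinases on which the results turn are shown first, since both kinases are abundant and behaved differently from mouse to mouse. They are RefSeq windows on GRCm38.p6, printed on the strand of the gene and ending before the RefSeq start of transcription, or before the GENCODE start where that lies further upstream. Ucp3, an uncoupling protein gene of muscle mitochondria that is no part of the group, is added because its level was among those most like that of Pdk4. Capitals mark the CCAAT box, written ATTGG where it lies on the other strand, the E-box CACGTG and the nuclear receptor half-site AGGTCA.
Pdk2 promoter, chr11:95041372-95041621, minus strand, 250 bases: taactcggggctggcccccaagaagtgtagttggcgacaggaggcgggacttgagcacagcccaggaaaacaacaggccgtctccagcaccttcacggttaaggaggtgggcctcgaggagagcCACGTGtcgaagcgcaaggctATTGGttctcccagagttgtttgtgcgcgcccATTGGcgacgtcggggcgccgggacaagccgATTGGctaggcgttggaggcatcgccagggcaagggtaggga
Pdk4 promoter, chr6:5496310-5496528, minus strand, 219 bases: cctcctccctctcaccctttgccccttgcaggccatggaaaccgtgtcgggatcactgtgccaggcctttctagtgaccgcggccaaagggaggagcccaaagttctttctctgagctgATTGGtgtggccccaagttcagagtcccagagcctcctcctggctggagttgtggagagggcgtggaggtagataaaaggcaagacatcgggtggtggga
Ucp3 promoter, chr7:100472741-100472989, plus strand, 249 bases: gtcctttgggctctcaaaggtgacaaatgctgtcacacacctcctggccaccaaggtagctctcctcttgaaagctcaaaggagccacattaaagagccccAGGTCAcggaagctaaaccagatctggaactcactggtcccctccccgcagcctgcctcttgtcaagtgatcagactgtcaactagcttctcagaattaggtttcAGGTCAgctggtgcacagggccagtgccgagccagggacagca

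The Pdk2 window held 3 CCAAT boxes and 1 E-box, and the Pdk4 window 1 CCAAT box. The Ucp3 window held 2 half-sites. For the search, the whole RefSeq window of 250 bases at the first listed start was read for each gene. That of Pdk4, printed above only as far as the GENCODE start, was included. Such windows were found for 9 of the 10 genes, and Pdp1 had none. Pdk1, Pdk2 and Mpc1 had a window at a further start, left out of these 9, whereas the windows of the background include further starts. Of these 9, 6 held a CCAAT box and 6 a GC box, GGGCGG, against 33.8% and 33% of all 32544 windows of the same length. The E-box occurred in 1 of the 9, that of Pdk2, against 6.03% of all windows. None of the 9 held the half-site AGGTCA (14% of all windows), the PPAR response element, a tandem of 2 half-sites 1 base apart (0.0338%), the FOXO site TGTTTAC (3.17%), the TATA box TATAAA (12.3%), the cAMP element TGACGTCA (1.55%) or the palindromic glucocorticoid response element (0.00922%). The window at the further start of Mpc1 held 1 half-site and 1 GC box, and those of Pdk1 and Pdk2 held no half-site. Both strands were searched, the half-site is contained in the tandem element, and a match or its absence describes these letters in this window only.

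Pdk4 and Pdk2 were the abundant kinases. To set genes side by side, normalized counts were divided by the median length of the coding transcripts of each gene in kilobases. On this scale the mean level of Pdk2 was 4183 ± 121 (SD, n = 5) in vehicle, 4315 ± 105 (n = 6) in GDF15 and 4451 ± 132 (n = 5) in pair-fed muscle. That of Pdk4 was 3688 ± 651, 2357 ± 924 and 2551 ± 920 per kilobase in the same order. Pdk1 stood far below both, with mean levels of 192 ± 4.57, 187 ± 10.6 and 181 ± 5.89 per kilobase. Pdk3 was the lowest, at 4.38 ± 2.03, 4.18 ± 1.15 and 3.63 ± 1.94 per kilobase. Pdk2 and Pdk4 overlapped in vehicle mice and not in the other groups, and Pdk4, Pdk1 and Pdk3 followed in this order with no overlap in any group.

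Pdk4 (chr6:5483351-5496309, GRCm38, minus strand) encodes the kinase that muscle adjusts to fuel supply. In the 5 vehicle mice it measured 14963, 14079, 14274, 11235 and 9695 normalized counts. In the 6 GDF15 mice it ranged from 5005 to 13673 with a median of 7740. In the 5 pair-fed mice it measured 5307, 7957, 14081, 8220 and 8868 normalized counts. The lowest vehicle mouse was above 5 of 6 GDF15 and 4 of 5 pair-fed mice, and the remaining mouse of each of these groups was within the vehicle range. The log2 fold change (on log2(normalized count + 1)) was -0.71 for GDF15 against vehicle (95% CI -1.22 to -0.21) and -0.58 for pair-fed against vehicle (95% CI -1.11 to -0.06). Neither passed after adjustment over all 11841 genes tested with limma, at adjusted p = 0.254 and 0.213. Both comparisons share the vehicle mice, so they are not independent of each other. GDF15 against pair-fed gave -0.13 (95% CI -0.63 to 0.37, adjusted p = 0.854), an interval that leaves room for a difference in either direction. The sum of Myh1 and Myh2, the myosins of IIx and IIa fibres, was also lower in these groups, with medians of 195877 normalized counts in vehicle, 158801 in GDF15 and 114264 in pair-fed mice. Over the 16 libraries it had r = 0.57 with Pdk4, and 0.51 after the group means were taken off, and its part in the Pdk4 values was not tested. Without pair-fed mouse 4, the one at 14081, the pair-fed against vehicle value was -0.77 with adjusted p = 0.0842 and passed both thresholds, and the GDF15 against pair-fed value turned to 0.05.

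Pdk2 (chr11:95026258-95041354, minus strand), the kinase that is expressed most widely across tissues, varied little between mice. It measured 9353, 9392, 9793, 9412 and 9027 normalized counts in vehicle mice. In GDF15 mice it ranged from 9374 to 9984 with a median of 9652, and in pair-fed mice it measured 9842, 9841, 9752, 10484 and 10071 normalized counts. The pair-fed values lay at the top of the range and overlapped with vehicle mouse 3. The log2 fold change was 0.09 for pair-fed against vehicle (95% CI 0.02 to 0.16, adjusted p = 0.146), 0.05 for GDF15 against vehicle (95% CI -0.02 to 0.11, adjusted p = 0.649) and -0.04 for GDF15 against pair-fed (95% CI -0.11 to 0.02, adjusted p = 0.577).

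Pdk1 (chr2:71873224-71903858, plus strand), a kinase known as a target of the hypoxia factor HIF-1, ranged from 962 to 1021 normalized counts in vehicle, from 914 to 1072 in GDF15 and from 910 to 990 in pair-fed mice. Its 3 comparisons gave log2 fold changes between -0.09 and 0.05 with adjusted p-values from 0.294 to 0.792. Pdk3 (chrX:93764607-93832201, minus strand), a kinase mostly of testis and kidney, measured between 1.80 and 16.4 normalized counts over the 16 mice and was left out of the tests by the minimum. With no minimum its 3 comparisons gave log2 fold changes between -0.33 and 0.32 with limma adjusted p-values from 0.735 to 0.997.

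**Figure D1:**
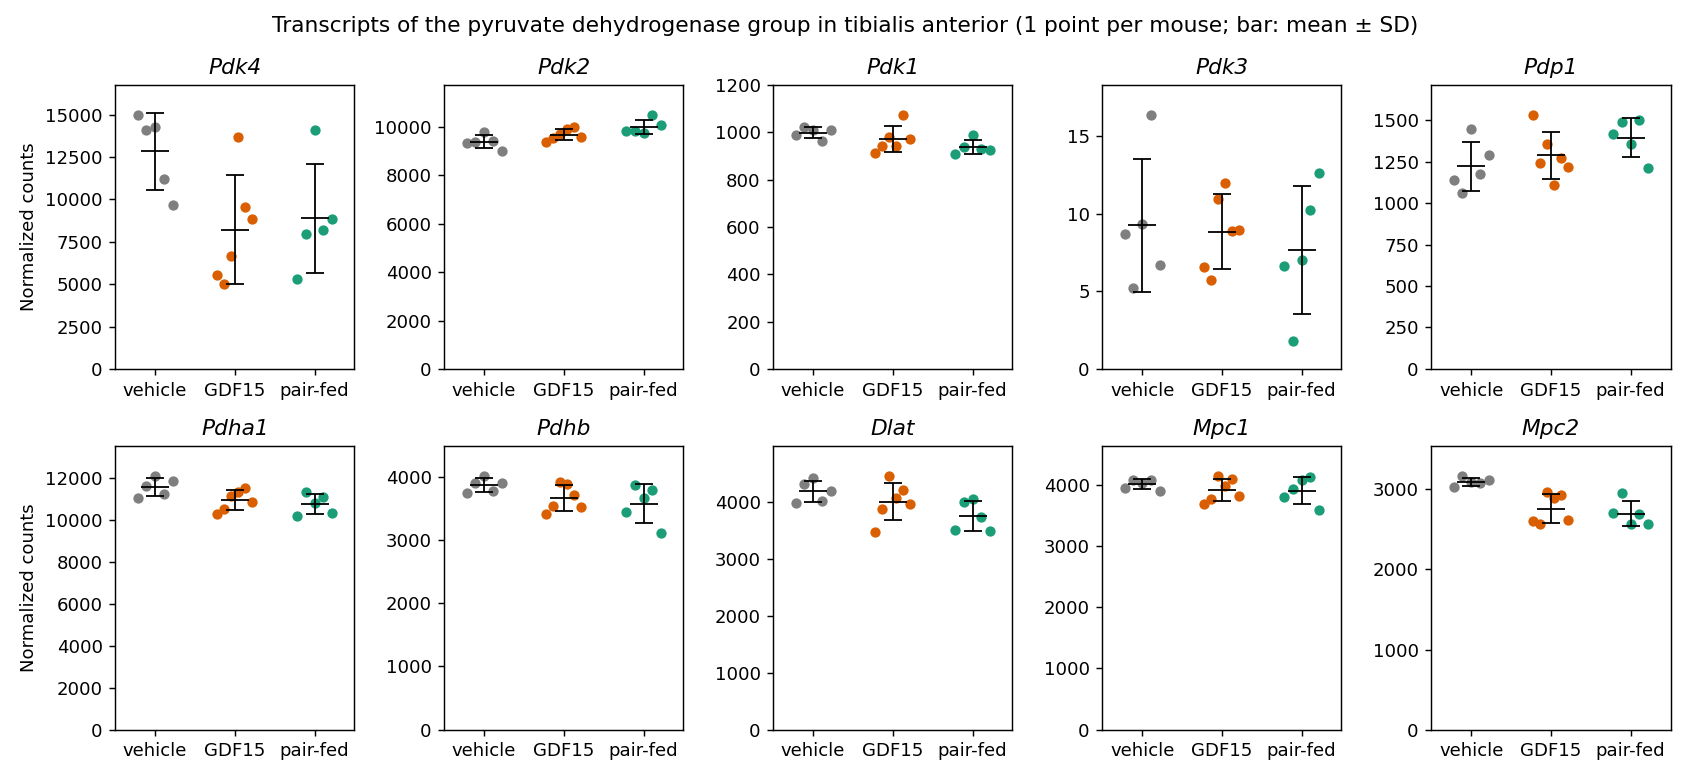
Normalized counts of the 10 genes in each of the 5 vehicle, 6 GDF15 and 5 pair-fed mice (y axis from 0 in each panel, bars are mean ± SD). Pdk4 spread from 5005 to 14963, whereas Pdk2 stayed between 9027 and 10484, and Mpc2 was lower in every GDF15 and pair-fed mouse than in every vehicle mouse.

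Pdk4 varied most of the 9 tested genes between mice of the same group. Its pooled within-group SD was 0.46 on the log2 scale, at the 99.5th percentile among 3276 genes averaging 500 normalized counts or more, whose median SD was 0.09. That of Pdk2 was 0.04, lower than in all but 0.733% of these genes. Those of the other 7 tested genes lay between 0.06 and 0.15. Over all 16 mice the highest Pdk4 value was 2.99 times the lowest, and the highest Pdk2 value 1.16 times the lowest.

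The make-up of the kinase transcripts differed between mice mainly in Pdk4. Pdk4 made up 45.4 ± 4.16% (SD, n = 5) of the summed kinase transcripts per kilobase in vehicle, 33.4 ± 7.96% (n = 6) in GDF15 and 34.7 ± 7.96% (n = 5) in pair-fed mice. Pdk2 made up 52.1 ± 3.93%, 63.8 ± 7.64% and 62.7 ± 7.73%. Pdk1 contributed between 2.40 and 2.77% and Pdk3 between 0.0506 and 0.0604% as group means. Per kilobase, Pdk4 exceeded Pdk2 in 1 of 5 vehicle mice and in none of the 6 GDF15 or 5 pair-fed mice. The ratio of Pdk4 to Pdk2 per kilobase ranged from 0.692 to 1.03 in vehicle, from 0.338 to 0.887 in GDF15 and from 0.348 to 0.931 in pair-fed mice, so the groups overlapped. These shares are a description of the same values and were not tested.

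**Figure D2:**
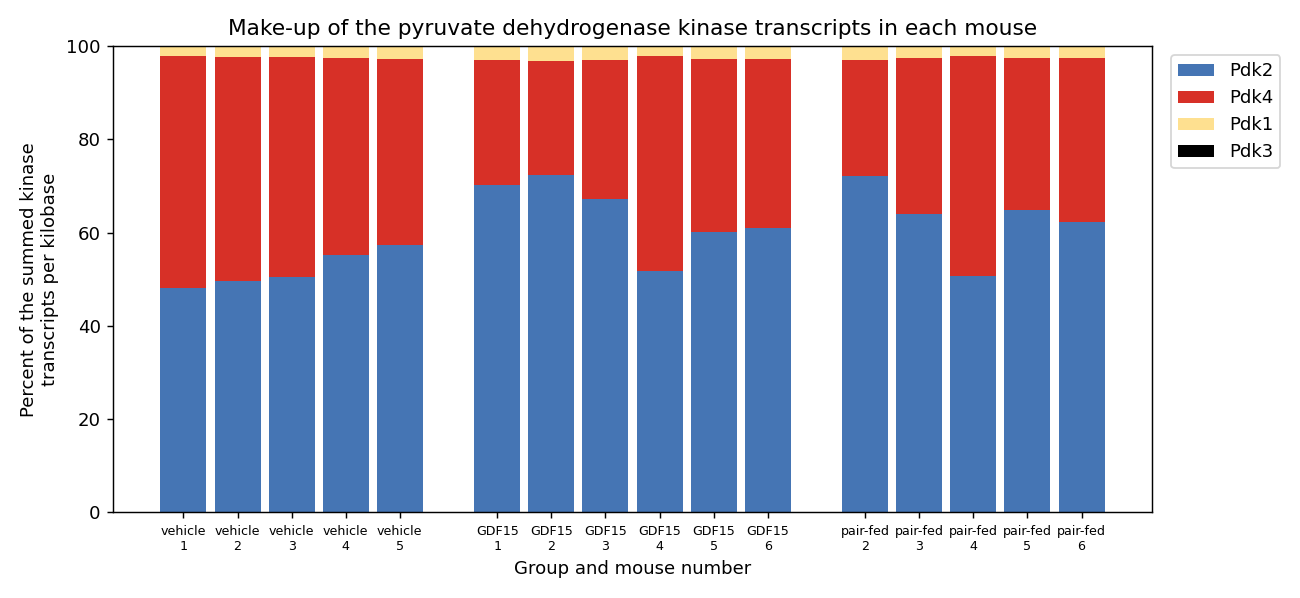
Share of Pdk2, Pdk4, Pdk1 and Pdk3 in the summed kinase transcripts per kilobase of each mouse (y axis, 0 to 100%), grouped by treatment along the x axis. The mean share of Pdk4 was 45.4% in vehicle, 33.4% in GDF15 and 34.7% in pair-fed mice, with GDF15 mouse 4 and pair-fed mouse 4 in the vehicle range.

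Pdp1 (chr4:11958184-11966452, minus strand) encodes the calcium-activated phosphatase that reactivates the complex. It measured 1139, 1061, 1445, 1177 and 1288 normalized counts in vehicle mice. It ranged from 1107 to 1529 with a median of 1258 in GDF15 mice, and measured 1414, 1487, 1356, 1500 and 1210 in pair-fed mice. The 3 groups overlapped broadly. The log2 fold change was 0.19 for pair-fed against vehicle (95% CI 0.01 to 0.38, adjusted p = 0.239), 0.08 for GDF15 against vehicle (95% CI -0.10 to 0.25, adjusted p = 0.806) and -0.12 for GDF15 against pair-fed (95% CI -0.29 to 0.06, adjusted p = 0.584).

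The catalytic subunits differed little. Pdha1 (chrX:160122209-160138413, minus strand), the E1α subunit that the kinases phosphorylate, measured 11055, 11633, 12100, 11269 and 11881 normalized counts in vehicle mice. In GDF15 mice it ranged from 10272 to 11533 with a median of 11018, and in pair-fed mice it measured 10206, 11362, 10829, 11109 and 10328. Its exons overlap those of Map3k15 on the opposite strand, and whether the counting used the strand is not given in the sources used here. The log2 fold change was -0.08 for GDF15 against vehicle (95% CI -0.16 to 0.00, adjusted p = 0.473) and -0.11 for pair-fed against vehicle (95% CI -0.19 to -0.02, adjusted p = 0.175).

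Pdhb (chr14:8165996-8173025, minus strand), the E1β subunit, ranged from 3744 to 4009 normalized counts in vehicle, from 3403 to 3922 in GDF15 and from 3109 to 3875 in pair-fed mice. Its log2 fold change was -0.08 (adjusted p = 0.630) for GDF15 and -0.12 (adjusted p = 0.260) for pair-fed against vehicle. Dlat (chr9:50634633-50659780, minus strand), the lipoate-bearing E2 core on which the acetyl group is made, ranged from 3990 to 4424 in vehicle, from 3475 to 4458 in GDF15 and from 3491 to 4061 in pair-fed mice. Its log2 fold change was -0.07 (adjusted p = 0.741) for GDF15 and -0.16 (95% CI -0.28 to -0.03, adjusted p = 0.162) for pair-fed against vehicle. GDF15 against pair-fed gave 0.03, 0.04 and 0.09 for Pdha1, Pdhb and Dlat, none past the test (adjusted p = 0.824, 0.800 and 0.519). Per kilobase, the order of mean levels was Pdha1, Pdhb and Dlat in each group, at 4069, 2555 and 1039 in vehicle mice, with no overlap between them.

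The carrier has 2 subunits. Mpc2 (chr1:165460637-165481214, plus strand) was the only one of the 9 tested genes to pass the adjusted p, and did so in pair-fed against vehicle. It measured 3024, 3165, 3088, 3078 and 3115 normalized counts in vehicle mice. It ranged from 2562 to 2965 with a median of 2753 in GDF15 mice, and measured 2707, 2952, 2569, 2696 and 2569 in pair-fed mice. The lowest vehicle mouse was above the highest mouse of each of the other groups. Mpc2 fell by 0.20 on the log2 scale in pair-fed against vehicle mice (95% CI -0.30 to -0.10, limma adjusted p = 0.0331), which is smaller than the fold threshold of 0.6. The value for GDF15 against vehicle was -0.17 (95% CI -0.27 to -0.07, adjusted p = 0.158) and that for GDF15 against pair-fed was 0.03 (95% CI -0.07 to 0.13, adjusted p = 0.809).

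Mpc1 (chr17:8282904-8297661, plus strand), the other subunit of the carrier, measured 3947, 4080, 4032, 4067 and 3899 normalized counts in vehicle mice. It ranged from 3686 to 4137 with a median of 3893 in GDF15 mice, and measured 3791, 3934, 4068, 4121 and 3587 in pair-fed mice. All 3 groups overlapped. The log2 fold change was -0.04 in both comparisons with vehicle (95% CI -0.12 to 0.05 for GDF15 and -0.13 to 0.05 for pair-fed, adjusted p = 0.814 and 0.669) and 0.00 for GDF15 against pair-fed (adjusted p = 0.982). Exons of Mpc1 overlap a transcript on the opposite strand and the gene has a processed copy elsewhere in the genome, so its reads are less certain than those of Mpc2. Whether Mpc2 and Mpc1 differed in their response was not tested.

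Over the 9 tested genes, none passed both thresholds in any comparison, a limma adjusted p under 0.1 together with a log2 fold change beyond 0.6 in either direction. The background was 0.279% of all tested genes for GDF15 against pair-fed, 0.304% for GDF15 against vehicle and 0.819% for pair-fed against vehicle. By adjusted p alone the counts were 0, 0 and 1, against 2.17, 0.769 and 6.37% of all tested genes. At an unadjusted p under 0.05 they were 0, 2 (Pdk4 and Mpc2) and 7 of 9, against 13.2, 11 and 18.9%. The 7 in pair-fed against vehicle were Pdk2 and Pdp1, with values above 0, and Pdk4, Pdha1, Pdhb, Dlat and Mpc2, with values below 0. Groups did not overlap for 0, 1 and 1 of the genes, Mpc2 each time, against 1.77, 1.65 and 5.44% of all tested genes. Log2 fold changes were below 0 for 3, 7 and 7 of 9, against 49.2, 49.6 and 49.8%, and their medians were 0.03, -0.07 and -0.11, against 0.00 for all tested genes in each comparison.

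**Figure D3:**
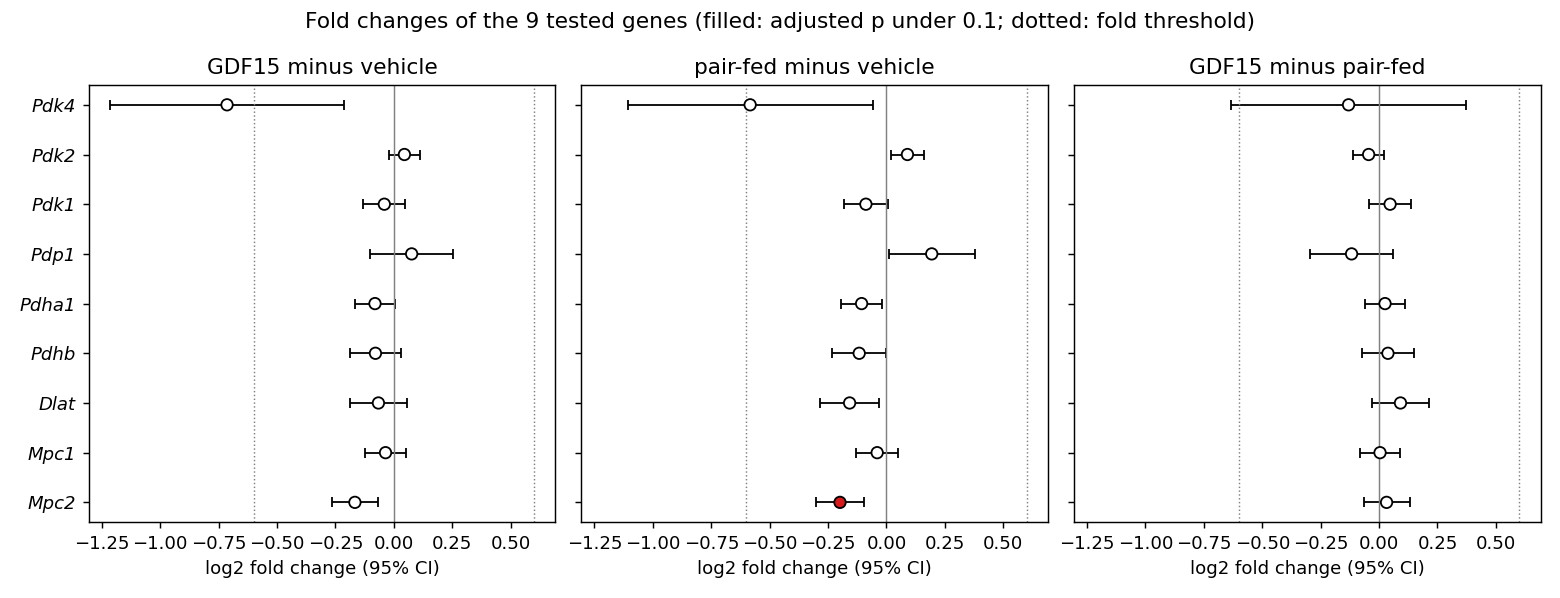
Log2 fold changes of the 9 tested genes (x axis, points, with 95% confidence intervals as bars) in the 3 comparisons. Pdk4 had the widest intervals, from -1.22 to -0.21 for GDF15 against vehicle, and the filled point is Mpc2 in pair-fed against vehicle at -0.20, the only one with an adjusted p under 0.1.

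The genes of the complex and of the carrier varied together from mouse to mouse. After the group means were taken off, the correlation r over 16 libraries lay between 0.60 and 0.84 for the 10 pairs among Pdha1, Pdhb, Dlat, Mpc1 and Mpc2, with a median of 0.75. Pdk1 correlated with these 5 genes at between 0.35 and 0.69, highest with Dlat and Pdha1, and so within that range at its top. Pdk4 did so at between 0.16 and 0.46, Pdk2 at between 0.29 and 0.47, and Pdp1 at between 0.00 and 0.25. The points share their libraries and scaling. The sum of Myh1 and Myh2 had r between 0.54 and 0.79 with these 5 genes over the 16 libraries, and between 0.55 and 0.67 after the group means were taken off. It also had r = 0.68 with Pdk1 (0.49 after the group means), so this was not particular to the complex and carrier genes. With Pdk2 and Pdp1 r was -0.34 and -0.33 (0.39 and 0.05 after the group means).

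That myosin sum ranged from 157265 to 224938 normalized counts in vehicle, from 128209 to 199052 in GDF15 and from 87595 to 168362 in pair-fed mice. It was lowest in the pair-fed group, in which Mpc2 fell. Actn3, a marker of the IIb fibre, was higher in every pair-fed mouse (142992 to 179559) than in every vehicle mouse (118039 to 132968), while the 3 IIb markers together overlapped. The 4 endothelial markers summed to between 4132 and 4971 normalized counts in vehicle, 3475 and 4284 in GDF15 and 3642 and 4404 in pair-fed mice, with medians of 4728, 3754 and 3921. Of these, Kdr, a VEGF receptor of blood vessel cells, was lower in every GDF15 mouse (653 to 928) and pair-fed mouse (796 to 1065) than in every vehicle mouse (1102 to 1275), as Mpc2 was. Actn3, Kdr and, further on, Mb are named after their values were seen. The part of these markers in the Mpc2 difference was not tested. The markers of the slow fibre summed to between 486 and 2657 normalized counts over all mice, with overlapping groups.

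**Figure D4:**
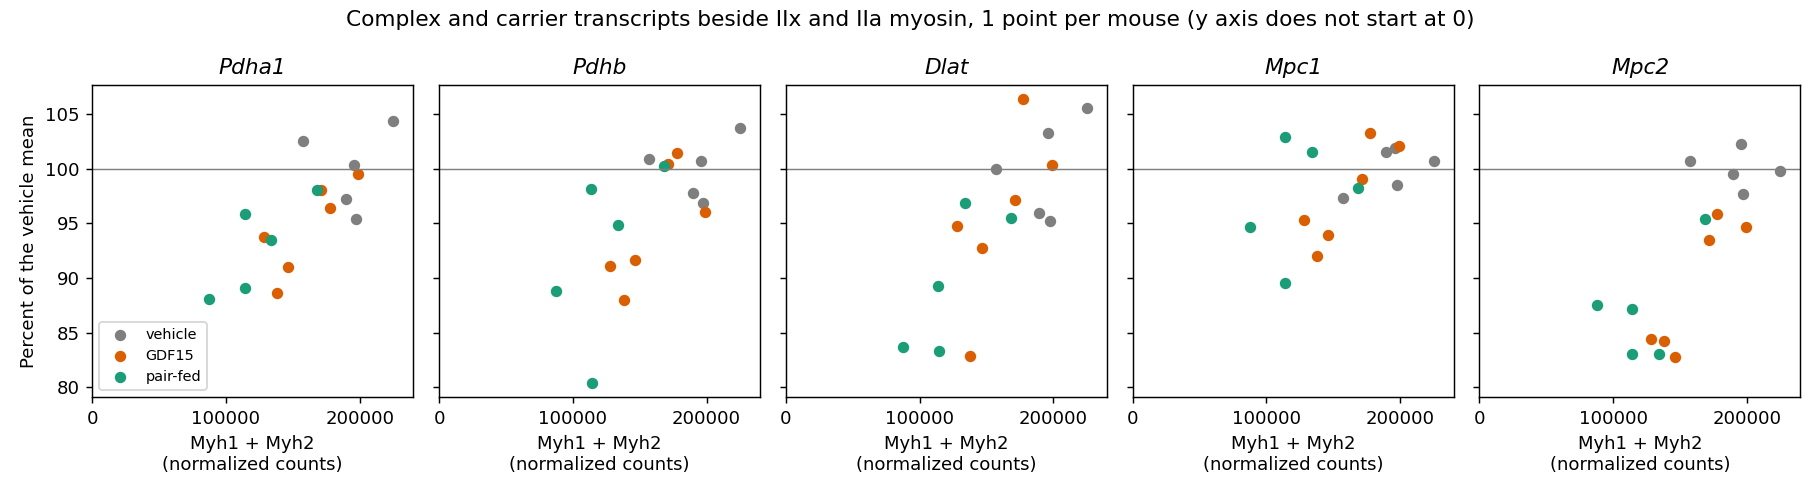
Pdha1, Pdhb, Dlat, Mpc1 and Mpc2 as percent of the vehicle mean (y axis, which does not start at 0) against the sum of Myh1 and Myh2 (x axis, normalized counts), 1 point per mouse. Mice with less of these myosins tended to have less of each transcript, with r between 0.54 and 0.79 over 16 libraries.

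Of the genes outside the group, the 5 whose levels were most like Pdk4 over the 16 libraries were Myadm, Ucp3, Msn, Slc1a1 and Gpam. They were chosen as the 5 with the highest r, so the size of r is a description. Ucp3 had r = 0.89, Spearman's rho 0.88 and r = 0.91 after the group means were taken off, and r = 0.83 without the 2 mice whose Pdk4 lay farthest from the median. Myadm, a membrane protein gene of the MAL family, had r = 0.90, rho 0.92 and r = 0.84 after the group means. Msn, the membrane to actin linker moesin, had r = 0.84. Slc1a1, a glutamate transporter, and Gpam, the acyltransferase that begins triglyceride synthesis, each had r = 0.80. The 16 points share their libraries and scaling.

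Ucp3 measured 3004, 2723, 3017, 2545 and 2494 normalized counts in vehicle mice. It ranged from 1687 to 3183 with a median of 2347 in GDF15 mice, and measured 1887, 2048, 3605, 2471 and 2772 in pair-fed mice. The highest GDF15 and pair-fed values were those of mouse 4 of each group, the same mice as for Pdk4. Its log2 fold change was -0.28 for GDF15 and -0.14 for pair-fed against vehicle (limma adjusted p = 0.574 and 0.716). GDF15 against pair-fed gave -0.13 (95% CI -0.48 to 0.21, limma adjusted p = 0.773), and the groups overlapped in all 3 comparisons.

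**Figure D5:**
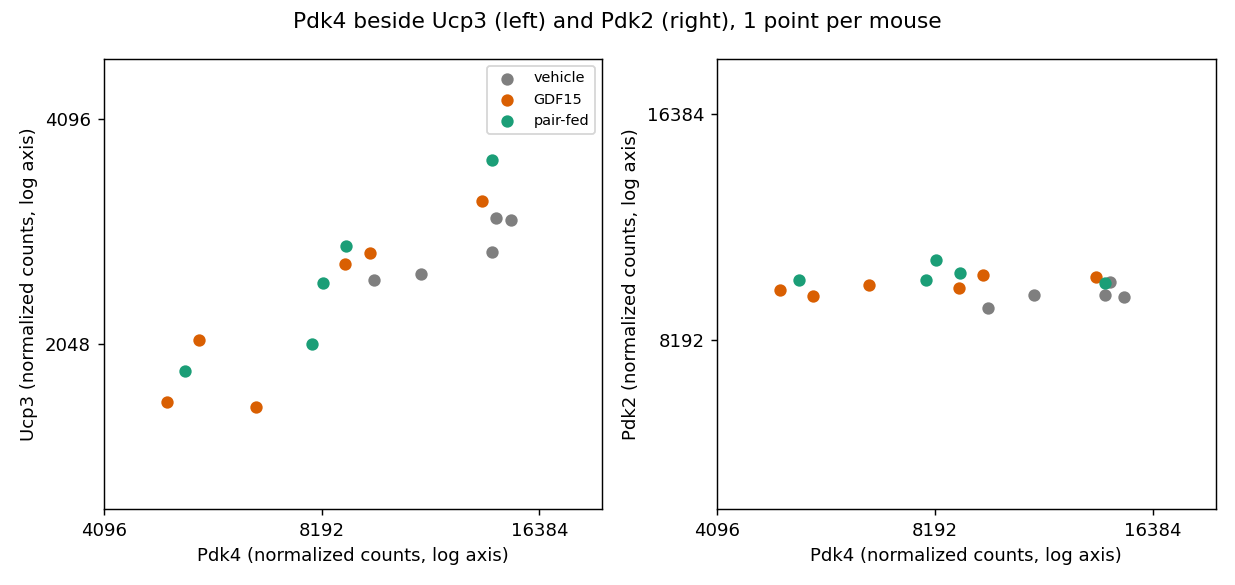
Ucp3 (left) and Pdk2 (right) against Pdk4 in normalized counts, 1 point per mouse, log axes spanning the same fold range in y. Ucp3 followed Pdk4 across all 3 groups (r = 0.89), whereas Pdk2 stayed between 9027 and 10484 at every level of Pdk4. Pdk2 had r = -0.09 with Pdk4, and 0.40 after the group means were taken off.

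Ucp3 is 1 of the 20 genes listed as induced by PPAR factors in muscle, with Cpt1b, Angptl4, Acadl, Cd36, Fabp3 and others of fat uptake and oxidation. This list, too, was chosen with earlier results of these data known, so its counts are a description and no independent support. The 20 genes correlated with Pdk4 at a median r of 0.61 (0.30 to 0.89), and 20 of 20 had an r above 0, against a median of -0.02 and 5681 of 11840 above 0 for all other tested genes. After the group means were taken off, the median was 0.49, against -0.01 for all other tested genes. The highest value is that of Ucp3, picked for its r to Pdk4, and without it the other 19 had a median of 0.60 (0.30 to 0.74), or 0.48 after the group means. In pair-fed against vehicle, 0 of the 20 were higher and 20 were lower, 6 passed the adjusted p and the median was -0.35, where 49.8% of all tested genes were lower and 6.37% passed. In GDF15 against vehicle 19 of 20 were lower, none passed, and the median was -0.24, where 49.6% of all tested genes were lower and 0.769% passed. In GDF15 against pair-fed 6 of 20 were lower, none passed and the median was 0.10, where 49.2% of all tested genes were lower and 2.17% passed. The first pair of these comparisons shares the vehicle mice. The Myh1 and Myh2 sum was ordered alike by group medians, as given above. So was Mb, the myoglobin of oxidative fibres, at medians of 43448 normalized counts in vehicle, 37847 in GDF15 and 32023 in pair-fed mice. Mb is 1 of the 5 fibre markers given at the start. Of the others, Acta1 (415845, 425714 and 452132), Ckm and Des had medians that rose in this order of groups, and Ttn was highest in pair-fed mice. The part of the myosin sum and of Mb in the values of this list, Fabp3 and Plin5 included, was not tested.

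Fabp3 and Plin5 passed both thresholds in pair-fed against vehicle. Fabp3, a fatty acid carrier of muscle cytoplasm, measured 13983, 15031, 10246, 12405 and 12549 normalized counts in vehicle and 5630, 10862, 10452, 8447 and 6638 in pair-fed mice. It fell by 0.65 on the log2 scale (adjusted p = 0.0667), with 1 vehicle mouse inside the pair-fed range. Plin5, a lipid droplet coat protein, ranged from 667 to 851 in vehicle and from 297 to 636 in pair-fed mice and fell by 0.70 (adjusted p = 0.0689). In GDF15 against vehicle they gave -0.44 and -0.37 (adjusted p = 0.366 and 0.522). With each library left out in turn, both pair-fed calls were lost for 7 of 16 libraries (adjusted p up to 0.174 and 0.178), among them pair-fed mice 2, 5 and 6 and vehicle mice 1, 2 and 5 for both genes, vehicle mouse 4 for Fabp3 and vehicle mouse 3 for Plin5.

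Among 15 factors known to act on the Pdk genes, Ppara alone passed both thresholds. Ppara, the PPAR factor that switches on fat oxidation, ranged from 62.7 to 89.1 normalized counts in vehicle mice and measured 48.7, 64.6, 26.3, 33.2 and 36.3 in pair-fed mice. It fell by 0.84 on the log2 scale in pair-fed against vehicle (adjusted p = 0.0409), with pair-fed mouse 3 inside the vehicle range, and the call was lost without vehicle mouse 5 or pair-fed mouse 5 (adjusted p between 0.103 and 0.104). GDF15 against vehicle gave -0.56 (adjusted p = 0.310). By adjusted p alone 1 factor was higher and 2 were lower of the 15 in pair-fed against vehicle, 1 was higher in GDF15 against pair-fed and none passed in GDF15 against vehicle, and the medians over the 15 were -0.09, 0.05 and -0.03 in that order. Of all tested genes, 6.37, 2.17 and 0.769% passed the adjusted p in these comparisons, and 0.819% passed both thresholds in pair-fed against vehicle.

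Of 14 genes listed as raised in muscle by fasting or glucocorticoids, 1 was higher and 1 lower past both thresholds in GDF15 against pair-fed, 3 were higher in GDF15 against vehicle and 2 were higher in pair-fed against vehicle, with medians of 0.03, 0.12 and 0.06. Of all tested genes, 0.279, 0.304 and 0.819% passed both thresholds in the same order. Per1, a clock gene with a known glucocorticoid element, rose by 1.46 in pair-fed and by 1.03 in GDF15 against vehicle mice (adjusted p = 2.01e-05 and 0.00145). Fkbp5, a chaperone of the glucocorticoid receptor, rose by 0.80 in GDF15 against vehicle and by 0.94 against pair-fed mice (adjusted p = 0.0562 and 0.0155). Mt2, a metallothionein, rose by 0.95 in GDF15 against vehicle (adjusted p = 0.0889), a call lost for 11 of 16 libraries left out in turn (adjusted p up to 0.208) and kept without vehicle mouse 1, GDF15 mouse 5 or pair-fed mouse 3, 4 or 6. The Fkbp5 call against vehicle was lost without vehicle mouse 2, 3 or 5 or GDF15 mouse 2 or 4 (adjusted p up to 0.147). Pfkfb3, which raises glycolytic flux, fell by 1.38 in GDF15 against pair-fed and rose by 0.81 in pair-fed against vehicle (adjusted p = 0.00718 and 0.0609), the latter lost without vehicle mouse 1, 2 or 4 or pair-fed mouse 2, 5 or 6 (adjusted p up to 0.154). Pdk4, itself known to respond to fasting, did not pass in any of these comparisons.

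The other parts of the complex were also examined. Dld, the E3 subunit, and Pdhx, which tethers it, are named here after their values were seen. Dld gave -0.09 for GDF15 and -0.12 for pair-fed against vehicle (adjusted p = 0.561 and 0.223), and Pdhx gave -0.08 and -0.15 (adjusted p = 0.727 and 0.248). Of the 4 genes of this list that were tested, 1 passed the adjusted p, in pair-fed against vehicle (6.37% of all tested genes), none passed both thresholds, and the medians were -0.08 for GDF15 and -0.13 for pair-fed against vehicle. In pair-fed against vehicle 1 of the 4 was higher, at 0.07, and 3 were lower, and in GDF15 against vehicle all 4 were lower. Pdpr, the regulatory subunit that restrains the phosphatase, fell by 0.29 in pair-fed against vehicle (95% CI -0.45 to -0.13, adjusted p = 0.0409), from between 698 and 845 normalized counts in vehicle to between 553 and 686 in pair-fed mice. GDF15 against vehicle gave -0.26 (adjusted p = 0.153), and the groups did not overlap in either comparison. The pair-fed call was lost without pair-fed mouse 5 or 6 (adjusted p = 0.110 and 0.113).

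Of 10 tested genes of lipoate synthesis and attachment, the cofactor arm that Dlat carries, 1 passed the adjusted p, again in pair-fed against vehicle (6.37% of all tested genes). Ndufab1, the mitochondrial acyl carrier protein, fell by 0.22 (adjusted p = 0.0605), from between 2258 and 2427 normalized counts in vehicle to between 1732 and 2234 in pair-fed mice. It also serves as a subunit of respiratory complex I. The call was lost without vehicle mouse 2, 3 or 4 or pair-fed mouse 2 or 6 (adjusted p up to 0.143), and the list median was -0.02.

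Of 12 tested genes of pyruvate supply, export and its other fates, 1 was higher and 1 lower by adjusted p in pair-fed against vehicle, where 6.37% of all tested genes passed (379 higher and 375 lower). Slc16a1, the lactate and pyruvate transporter MCT1, fell by 0.43 (adjusted p = 0.0311), and its 5 pair-fed values between 479 and 660 normalized counts lay below all 5 vehicle values between 686 and 916. Pcx, pyruvate carboxylase, which makes oxaloacetate from pyruvate, rose by 0.24 (adjusted p = 0.0448), from 982 ± 62.7 to 1160 ± 100 normalized counts (SD, n = 5 each), with overlapping groups, and lost the call without vehicle mouse 1 or 2 or pair-fed mouse 2 or 5 (adjusted p up to 0.124). The list median was 0.08. Neither gene passed in the comparisons of GDF15 with vehicle or with pair-fed mice.

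Among 9 genes of the sister dehydrogenase complexes, Dhtkd1, the E1 subunit for 2-oxoadipate, fell by 0.78 in GDF15 against pair-fed (adjusted p = 0.0572), from between 55.4 and 104 normalized counts in pair-fed to between 36.0 and 52.6 in GDF15 mice. That call was lost without GDF15 mouse 3 or 4 or pair-fed mouse 2, 5 or 6 (adjusted p up to 0.141), and the list median was -0.03. It was the 1 gene of the 9 past both thresholds in that comparison, against 0.279% of all tested genes. Among 9 genes that carry acetyl-CoA into or around the citrate cycle, Slc25a20, the carnitine and acylcarnitine carrier, fell by 0.37 in pair-fed against vehicle (adjusted p = 0.0534), the 1 of the 9 to pass there against 6.37% of all tested genes, and no gene of the list passed in the other comparisons. The call was lost without vehicle mouse 1, 2 or 5 or pair-fed mouse 2, 5 or 6 (adjusted p up to 0.134), and the list median was -0.08.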

How the data were processed

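RNA from tibialis anterior muscle of 16 mice was sequenced by the authors from a directional library kit. The submitters' processing notes name Trim Galore, Salmon, DESeq2 and the build mm10, and per the methods reads were trimmed and then quantified with Salmon. Versions, annotation and the strand setting of the counting are not given in the sources used here. The deposited values are log2 values, and how the authors transformed them is not stated. They were read here as a variance stabilizing form, which the methods name for the principal components. With the lowest value, 7.32, taken to stand for 0, the transformation was inverted to give normalized counts. Read totals were estimated from the steps between low values, at which 88.2 to 96.3% of the values of genes with 1 transcript came out whole within 0.1 reads. Salmon splits reads between transcripts, so the values are estimates and no count model was used.

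Genes averaging 10 normalized counts or more (11841 of 14538) were tested on log2(normalized count + 1) by limma 3.58.1 in R 4.3.3 (lmFit, contrasts.fit, eBayes with a trend), two-sided, with the 3 groups in 1 fit and without covariates. Benjamini-Hochberg adjustment was over the tested genes, and the thresholds were those of the study for this muscle, 0.1 for the adjusted p and 0.6 for the size of the log2 fold change. The fit was checked on simulated data.

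Gene positions and transcript lengths came from GENCODE vM21 (GRCm38), which held 14282 of the symbols, and promoters from RefSeq on GRCm38.p6. Members and lists were chosen with earlier results of these data known. Named genes were every member, list genes past both thresholds (where a list had none, up to 3 by adjusted p), and the 5 genes with the highest r to Pdk4. Alternatives were other pseudocounts, minimums, scalings and weights, no trend, 2 groups at a time, a block by mouse number and each library left out. Scaling to the summed table was added after the data were seen.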

Additional observations from a re-analysis of the deposited data

Results flagged for a closer look

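The highest and the lowest mouse of each group were compared with the rest of their group for 30 genes, 90 sets in all, and 7 stood apart by a gap above the 95% critical value of Dixon's test. Chance alone gives about 1 in 20. None of the 7 was in a gene of the pyruvate dehydrogenase group. Pdpr was highest in vehicle mouse 1, at 845 normalized counts against 741 in the next mouse. Slc16a1 was highest in vehicle mouse 3, at 916 against 742, and Plin5 in vehicle mouse 2, at 851 against 705. Pcx was highest in GDF15 mouse 6, at 1189 against 1053, and Ppara in GDF15 mouse 5, at 72.9 against 48.6. Myadm and Gpam, both chosen for following Pdk4, were highest in pair-fed mouse 4, at 489 against 422 and 5097 against 4296, the mouse with the highest pair-fed Pdk4.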

How the results depend on the processing

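The direction of Pdk4 and of Mpc2 against vehicle held under every alternative tried, and Mpc2 passed the adjusted p in pair-fed against vehicle under each of them. With each library left out in turn, Mpc2 ranged from -0.23 to -0.18 in that comparison, and Pdk4 from -0.88 to -0.59 in GDF15 and from -0.77 to -0.42 in pair-fed against vehicle. The count of members past the adjusted p in pair-fed against vehicle, 1 as reported, was 3 under quantile normalization (Dlat and Pdk2 added) and 3 when scaled to the summed table (Dlat and Pdha1 added), and 1 to 2 with libraries left out. Of all tested genes, 6.37% passed as reported, 6.95% under quantile normalization, 8.72% when scaled to the summed table and 3.43% (without pair-fed mouse 5) to 8.85% (without pair-fed mouse 3) with libraries left out. That share ranged from 0.557% (without pair-fed mouse 5 or 6) to 3.14% (without pair-fed mouse 3) in GDF15 against pair-fed and from 0.38% (without vehicle mouse 2) to 0.819% (without pair-fed mouse 6) in GDF15 against vehicle, with 0 members past the adjusted p throughout. In pair-fed against vehicle, members past both thresholds with libraries left out numbered 0 to 1, against 0.507 to 1.33% of all tested genes. That member was Pdk4, without pair-fed mouse 4. Without GDF15 mouse 1 the gene added was Dlat, by adjusted p alone (log2 fold change -0.16, adjusted p = 0.0974). Of all tested genes, 6.88% passed the adjusted p without pair-fed mouse 4 and 6.87% without GDF15 mouse 1.

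On the deposited log2 values, which compress low genes, 5 named calls kept their direction and adjusted p but not the fold threshold. These were Ppara at -0.23 and Plin5 at -0.47 (pair-fed against vehicle), Dhtkd1 at -0.23 (GDF15 against pair-fed), and Fkbp5 at 0.54 and Mt2 at 0.22 (GDF15 against vehicle). On the same values all genes past both thresholds numbered 7 for GDF15 against pair-fed, 9 for GDF15 against vehicle and 17 for pair-fed against vehicle, against 33, 36 and 97. With libraries left out these counts ranged from 15 (without pair-fed mouse 5) to 62 (without pair-fed mouse 3), from 21 to 38 and from 60 to 157. Scaling to the summed table gave 207 higher and 78 lower genes past the adjusted p in GDF15 against pair-fed, against 110 and 147, and 239 and 793 in pair-fed against vehicle, against 379 and 375.

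Values near 0 changed sign in GDF15 against pair-fed. Mpc1 was -0.00207 with library weights and ranged from -0.026 to 0.024 with libraries left out. Likewise Pdk4 ranged from -0.30 (without pair-fed mouse 2) to 0.053 (without pair-fed mouse 4), Pdhb from -0.011 to 0.068, Dld from -0.0027 to 0.058 and Pdpr from -0.0015 to 0.077. The cause was not tested.

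Whether the mouse numbers pair mice between groups is not given in the sources used here. Same-numbered libraries correlated at between -0.10 and 0.07 over 14 pairs after the group means were taken off. Such correlations cannot show whether food was matched from mouse to mouse. With the number as a block, 2 members passed the adjusted p in pair-fed against vehicle, Dlat being added, where 4.39% of all tested genes passed, and 20 genes passed both thresholds in GDF15 against vehicle.

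Of the calls of other named genes, those of Fkbp5, Mt2 (GDF15 against vehicle), Fabp3, Ndufab1, Pfkfb3, Plin5 and Slc25a20 (pair-fed against vehicle) were lost without the trend, those of Mt2, Fabp3, Pcx, Pdpr, Pfkfb3 and Plin5 with the block, and that of Mt2 under quantile normalization. The cause was not tested.

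Precision was limited by 5 or 6 mice a group, and Pdk3 averaged under 10 normalized counts.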
